A study of Mus musculus with 6 samples.

Results

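The polypyrimidine tract-binding (PTB) family and its co-repressors were followed through RNA-seq of mouse intestinal epithelial cells. The 6 genes were chosen by name: Ptbp1, Ptbp2 and Ptbp3, which encode the family, Matr3, and Raver1 and Raver2. All 6 were found among the 55331 genes of the deposited gene table, and 46 of the 61715 deposited splicing events carried one of their symbols. The WT group (3 libraries) had the genotype Ptbp1f/f, with floxed Ptbp1 alleles and no Cre, and the PTBP1_KO group (3 libraries) had Ptbp1f/f;Vil-creER+/-, the same floxed alleles with a tamoxifen-dependent Cre under villin regulatory sequence. All mice were C57BL/6 and 60 days old, and all received tamoxifen at 100 mg/kg on 2 consecutive days, so tamoxifen was common to both groups. Cells came from the crypt fraction 20 h after injection 2. The villin promoter acts in epithelium, so cells of other types in the preparation are not its targets.

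PTB proteins carry several RNA recognition motifs and bind pyrimidine-rich RNA, most often to keep a nearby exon out of the messenger RNA. PTBP1 is the form of most dividing cells and PTBP2 is the form best known from developing neurons, while PTBP3 was first described in blood cells. The family regulates itself and its paralogs: PTBP1 is known to favour skipping of a short exon in its own RNA and in that of Ptbp2, which shifts the reading frame and sends the RNA to nonsense-mediated decay. Matrin-3 and the Raver proteins bind PTBP1 through short peptide motifs and act with it as splicing co-regulators.

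The exons on which these data turn are 34 nt long, which is not a multiple of 3. They are shown 5′ to 3′ on the sense strand, from the GENCODE M21 transcripts on GRCm38. For the exon shared by the 3 paralogs, capitals mark the 19 positions at which all 3 are identical.
Ptbp1 exon 10: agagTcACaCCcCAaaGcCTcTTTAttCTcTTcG
Ptbp2 exon 10: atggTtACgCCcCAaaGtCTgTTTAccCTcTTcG
Ptbp3 exon 11: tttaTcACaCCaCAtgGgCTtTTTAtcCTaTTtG
Ptbp3 exon 2: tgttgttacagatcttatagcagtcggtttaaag
The first lies at chr10:79862014-79862047 on the plus strand, and the others lie on the minus strand at chr3:119724612-119724645, chr4:59485339-59485372 and chr4:59546149-59546182. Ptbp1 exon 10 and Ptbp2 exon 10 were identical at 26 of 34 positions, and Ptbp3 exon 11 matched the former at 22 positions and the latter at 21. Ptbp3 exon 2 has the same length but matched the other 3 at only 5 to 7 positions. All 4 exons are coding over their whole length in the transcripts used for numbering.

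For Ptbp1 the annotated transcripts also cover the introns on either side of exon 10. The 100 bases before the exon (chr10:79861914-79862013, plus strand) are shown because PTB proteins bind pyrimidine tracts, and capitals mark matches to TCTT or TCTCT.
Ptbp1 intron before exon 10: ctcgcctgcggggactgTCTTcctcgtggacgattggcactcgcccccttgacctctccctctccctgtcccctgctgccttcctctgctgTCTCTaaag
Of these bases 71.0% were pyrimidines, against a median of 55.0% over 5671 windows placed the same way before skipped exons of the table. Only exons whose neighbouring intron lies inside an annotated transcript could be read, which is 16.2% of 34977. Searched on the sense strand with overlaps counted, the window held 1 match to TCTT and 1 to TCTCT, and none to CTCTCT or TTTCTT. Of all such windows 57.6% held TCTT, while TCTCT was present in 26%, CTCTCT in 9.61% and TTTCTT in 13.6%. The motifs overlap one another, since CTCTCT contains TCTCT and TTTCTT contains TCTT. The 100 bases after exon 10 held none of the 4 motifs and were 69.0% pyrimidine, against a median of 51.0%. The introns beside the Ptbp2 exon and Ptbp3 exon 2 are not covered by these transcripts and are not shown.

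Ptbp1, the deleted gene, fell in PTBP1_KO. The gene (ENSMUSG00000006498.16) lies at chr10:79854427-79864771 on the plus strand. Levels are given as FPKM, fragments scaled to transcript length and library size, with 1 value per group, so they have no error from replicates. Ptbp1 had a level of 230.0 FPKM in WT and 122.8 FPKM in PTBP1_KO, which is 53.4% of WT. In the authors' deposited table the log2 fold change was -0.91 with q = 0.0125, from the authors' Cuffdiff run over all genes tested. In bulk samples fewer cells of a type and less RNA per cell cannot be told apart. Ptbp1 was the 1 member called at q below 0.05, of 5 members tested, against 0.537% of the 15460 genes tested by the authors (0.149% lower and 0.388% higher). At 230.0 FPKM in WT it stood at percentile 97.5 of those genes.

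Ptbp2, the neuronal paralog (ENSMUSG00000028134.11, chr3:119718742-119784466, minus strand), stood at 19.0 FPKM in the WT group and at 35.9 FPKM in the PTBP1_KO group, a 1.89-fold higher value. In the authors' deposited table its log2 fold change was 0.92 with p = 0.00135 and q = 0.156 (Cuffdiff), which does not pass the threshold. Only 1.53% of the 12337 tested genes with at least 1 FPKM had a larger absolute log2 fold change than Ptbp2, and 1.58% a larger one than Ptbp1. For Ptbp3 (ENSMUSG00000028382.15, chr4:59471868-59549364, minus strand) the level was 41.4 FPKM without Cre and 41.8 FPKM with it, and the authors' deposited table lists p = 0.932. Ptbp3 lay above Ptbp2 in both groups.

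Added together, the 3 paralogs had 290.5 FPKM (WT) and 200.5 FPKM (PTBP1_KO), or 69.0% of the WT sum. Ptbp1 made up 79.2% of that sum in WT and 61.2% in PTBP1_KO. Ptbp2 made up 6.56% and 17.9%, and Ptbp3 14.3% and 20.8%. The ratio of the Ptbp1 to the Ptbp2 level was 12.1 in WT and 3.42 in PTBP1_KO. These sums carry no error either. Group FPKM covers the whole gene and does not separate its splice forms. Both Ptbp1 and Ptbp2 had reads of forms that pass over coding exons, described below for libraries without a named genotype. The shares and the ratio therefore refer to all RNA of each gene. The part that encodes full-length protein was not measured.

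The co-repressors did not pass the test. Matr3 (ENSMUSG00000037236.16, chr18:35562138-35593835, plus strand), which encodes the nuclear matrix protein matrin-3, was listed at 62 FPKM (WT) and 70.9 FPKM (PTBP1_KO), at a log2 fold change of 0.19 and p = 0.278 in the authors' deposited table. Raver1 (ENSMUSG00000010205.11, chr9:21074158-21092008, minus strand), whose product binds PTBP1 and vinculin, was listed at 60.2 FPKM (WT) and 60.3 FPKM (PTBP1_KO), and p was 0.988 in the authors' deposited table. Raver2, its paralog (ENSMUSG00000035275.14, chr4:101068983-101152370, plus strand), was listed at 0.00521 FPKM in WT and 0.0288 FPKM in PTBP1_KO and was not tested by the authors. In WT the order of levels was therefore Ptbp1, Matr3, Raver1, Ptbp3, Ptbp2 and Raver2. The gene table gives no spread by which neighbours in that order could be told apart.

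**Figure D1:**
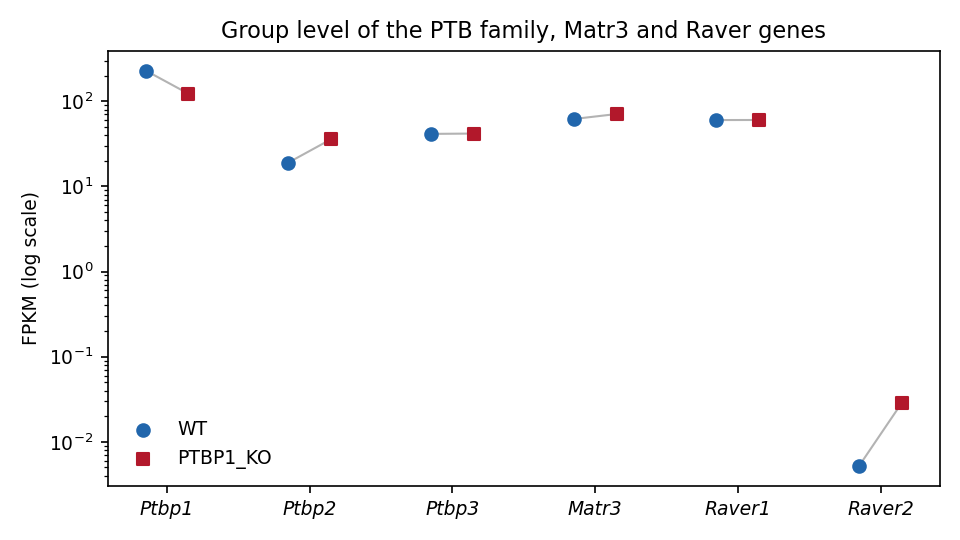
Level of each gene as the authors' 1 FPKM value per group, on a log axis, with WT as circles and PTBP1_KO as squares joined by a line. Ptbp1 lies at 230.0 and 122.8 FPKM and Ptbp2 at 19.0 and 35.9 FPKM, while Ptbp3, Matr3 and Raver1 lie between 41.4 and 70.9 FPKM in both groups and Raver2 lay near 0.

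Some of these values can hold reads of other genes. Of the distinct stretches of 50 nt in Raver1 transcripts, 99.7% also occur in Gm38431, an annotated protein-coding gene that overlaps Raver1 on the same strand of chromosome 9. The level of Gm38431 was 4.00 FPKM (WT) and 3.51 FPKM (PTBP1_KO), and how reads were divided between the pair bears on the Raver1 value. Matr3 shared 16.6% of its stretches with other genes and Ptbp1 4.75%, the latter with processed pseudogenes such as Gm4900 (0.00492 FPKM in WT and 0.00943 FPKM in PTBP1_KO). Ptbp2, Ptbp3 and Raver2 shared none, and no stretch was common to any 2 of the 6 genes.

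The labelled tissue was checked against marker lists. All 9 epithelial markers were present, with Epcam at 1220 FPKM in WT and 1340 FPKM in PTBP1_KO and none called. Of 13 neuron and glia markers, 11 were below 1 FPKM in both groups, their summed level was 3.51 FPKM in WT and 4.37 FPKM in PTBP1_KO, and Sox10 was listed at 0 in both. Of the 5 neuron and glia markers tested, 4 had a positive log2 fold change and none was called. Ret was listed at 0.694 FPKM (WT) and 1.12 FPKM (PTBP1_KO), and Snap25 at 0.465 and 0.847 FPKM. These 2 had an unadjusted p below 0.05 in the authors' deposited table. The 13 immune markers summed to 115.2 FPKM (WT) and 197.4 FPKM (PTBP1_KO), with 3 of 13 called higher (Cd8a, Gzma and Gzmb) and none lower in the authors' deposited table. Over all tested genes 0.388% were called higher. Of the 13, 11 had a positive log2 fold change and 7 an unadjusted Cuffdiff p below 0.05, and their median log2 fold change was 0.63. The 12 markers of stroma, muscle and endothelium summed to 9.33 FPKM (WT) and 9.60 FPKM (PTBP1_KO), with none called, and without Vim the sums were 4.43 and 3.33 FPKM. Of 8 tested, 4 had an unadjusted Cuffdiff p below 0.05, namely Col1a1, Col1a2, Col3a1 and Dcn. These were lower in PTBP1_KO, with log2 fold changes from -1.34 to -1.06 in the authors' deposited table. The other 4 tested, Acta2, Pdgfrb, Vim and Pecam1, had positive log2 fold changes, from 0.11 to 0.95. With 4 positive and 4 negative values, the median of -0.48 does not describe a fall of the whole list. Of 6 crypt markers none was called, and their sum was 2221 FPKM (WT) and 3170 FPKM (PTBP1_KO), with Lyz1 at 1471 and 2470 FPKM. The other 5 crypt markers all had a negative log2 fold change and summed to 750.2 FPKM (WT) and 699.6 FPKM (PTBP1_KO). The part of the neuronal, immune, stromal and crypt markers in the levels of Ptbp1 and Ptbp2 was not tested.

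Splicing was read from reads that include or skip a region in each of 6 libraries. The headers place 3 libraries in a first set and 3 in a second set and name the genotype of neither, so no genotype is attached to a set, and no test of the sets beyond the authors' own was run. Inclusion levels run from 0 to 1 and were recomputed for each library. Differences are the mean of the first set minus that of the second. An event was called when the authors' false discovery rate (FDR) was below 0.05, the difference was at least 0.1 in size and the mean was at least 20 reads per library. Summed over all skipped exon events, a library held 32226951 to 39774266 reads, with some reads counted in several events, and reads per 1000000 of that sum are written RPM. The share of all genes whose RPM ranges lie apart between the sets was not computed, so statements on such ranges are descriptions.

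Of the 46 events of the members, 15 belonged to Ptbp1, 4 to Ptbp2, 14 to Ptbp3 and 13 to Matr3. Raver1 and Raver2 had none, while Gm38431 had 22 events, none of them called. A mean of at least 20 reads was reached by 44 events, and 3 of these were called (6.82%), against 1.56% of 53918 events of all genes. They were 1 event each in Ptbp1, Ptbp2 and Ptbp3, and all 3 differences were positive. Over all genes, 543 of the 843 called events had a positive difference, which is 1.01% of the events tested. Ptbp1 is the deleted gene, and its called event rests in part on the junction of exons 2 and 9 described below. The origin of that junction was not tested. The share called among the members cannot be read as splicing regulation of the family alone. The inclusion ranges of the sets did not overlap in 11 of the 44 events (25%), against 9.15% of all events and 7.97% of skipped exon events. The 11 include the 3 called events, but ranges can also lie apart at a very small difference. Examples are events of Matr3 (-0.002), Ptbp3 (-0.003 and 0.011) and Ptbp1 (0.012), so the 25% does not measure how much splicing differed. Since the events of a gene share exons and reads, these shares are descriptions.

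The 34 nt exon 10 of Ptbp2 showed the widest separation among the called events of the members. Its inclusion level was 0.866, 0.840 and 0.948 in the libraries of the first set. In the second set it was 0.0258, 0.0313 and 0.0528. Every library of the first set was therefore mostly including the exon and every library of the second set was mostly skipping it. The including reads were 224, 246 and 364 in the first set and 2, 2 and 6 in the second, and the skipping reads were 28, 38 and 16 against 61, 50 and 87. The authors' deposited table gave a difference of 0.848 with an FDR listed as 0. By size it ranked 2 among 632 called skipped exon events (1.68% of those tested), after an Anxa7 exon of 66 nt (0.877) and before a Slc38a6 exon of 101 nt (0.663). The Anxa7 and Slc38a6 events had a mean of 24.3 and 25.8 reads, against 187 for Ptbp2.

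In the annotation, all 3 annotated transcripts that contain it are protein-coding, and of 3 that skip it none is, 2 being marked for nonsense-mediated decay. With the exon the coding sequence of Ptbp2-201 is 532 codons long, and in Ptbp2-208, which skips it, a stop follows 356 codons.

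Reads over another exon of Ptbp2 did not overlap between the sets either. Over the 76 nt exon at chr3:119761703-119761778, the Ptbp2 skipped exon event with most reads, there were 6.55, 8.58 and 12.2 RPM in the first set. In the second set there were 1.84, 1.99 and 1.64 RPM. The lowest library of the first set stood above the highest of the second. Inclusion of that exon was 0.986 or above in every library. The other 2 Ptbp2 events, both alternative 3′ splice sites (1.1% of such events called over all genes), had differences of 0.011 and -0.019 in the authors' deposited table and were not called. In the first of them the sites lie 3 nt apart, and the inclusion level was 0.438 to 0.534 in the first set and 0.391 to 0.565 in the second.

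**Figure D2:**
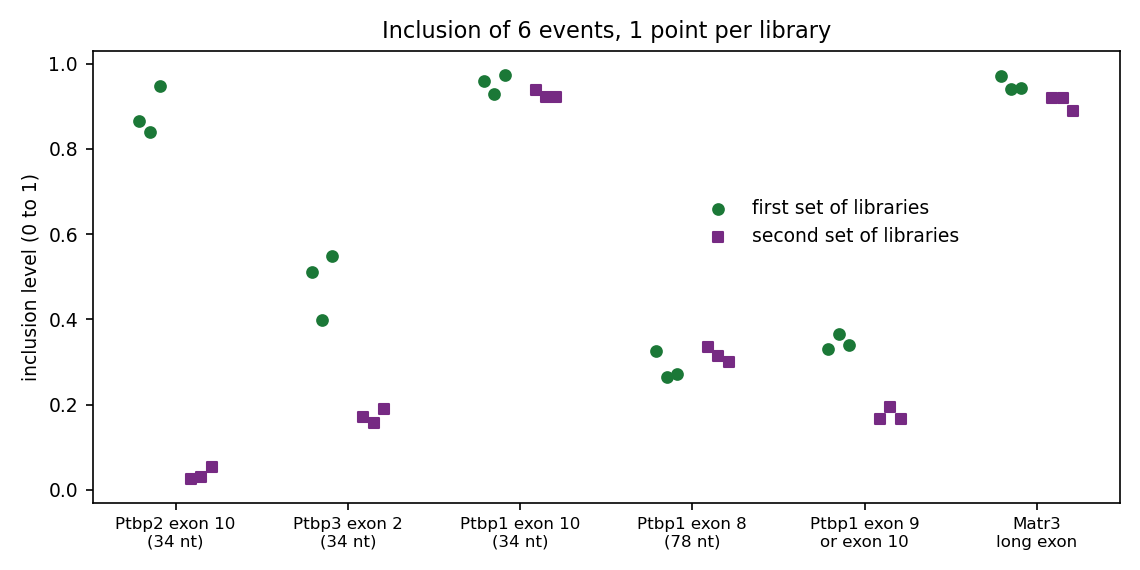
Inclusion level (0 to 1) of 6 events, with 1 point per library, the first set as circles and the second set as squares. Ptbp2 exon 10 lies at 0.840 or above in the first set and at 0.0528 or below in the second, Ptbp3 exon 2 and the Ptbp1 exon pair are separated by less, and Ptbp1 exons 8 and 10 overlap between the sets.

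In Ptbp3 the called exon was not the counterpart of Ptbp2 exon 10 but the early exon 2. Its inclusion level was 0.510, 0.399 and 0.549 in the first set and 0.171, 0.156 and 0.189 in the second. The sets did not overlap, and both forms were present in every library. The authors' deposited table gave a difference of 0.314 with an FDR listed as 0, on a mean of 310 reads. It ranked 88 of the 632 called skipped exon events, between Spata13 (-0.317) and Ppp1r9a (0.312). The annotated start of translation differs between the 2 transcripts compared here. Ptbp3-212, which contains it, starts in exon 1 and has 554 codons. Ptbp3-201, which lacks it, starts in its own exon 2 further downstream and has 523 codons. Of the annotated transcripts, 5 contain the exon (4 protein-coding) and 5 skip it (4 protein-coding).

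The same exon appeared in 2 further events with other neighbours, and these were not called. Joined to the exon at chr4:59501310-59501474 it was included at 0.968 or above in all libraries, on a mean of 48.5 reads, and the other event had a mean of only 17.7 reads. Ptbp3 exon 11, the counterpart of Ptbp2 exon 10, had no event of its own, and no annotated transcript skips it. The neighbouring 93 nt exon was included at 0.996 or above in every library. The remaining Ptbp3 events above the read minimum had differences between -0.035, at an alternative 5′ splice site (1.57% of such events called over all genes), and 0.011 in the authors' deposited table. Reads over the 165 nt exon of Ptbp3 were 19.9, 22.8 and 19.1 RPM in the first set and 17.3, 15.9 and 26 RPM in the second, and these ranges overlap.

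Ptbp1 itself was read exon by exon, numbered in the 14-exon transcript Ptbp1-216. Reads from the middle of the gene were far scarcer in the first set than in the second. The junction of exons 5 and 6 had 1.58, 6.75 and 3.32 RPM in the first set and 36.8, 40.0 and 42.0 RPM in the second. The junction of exons 3 and 4 had 1.62, 5.22 and 2.59 RPM against 28.1, 32.4 and 28.9 RPM. Library 2 of the first set was the highest of its set at both junctions and still lay below every library of the second set.

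Further downstream the gap was smaller. Reads including exon 10 were 18.6, 24.8 and 22.6 RPM in the first set and 35.7, 45.0 and 47.1 RPM in the second, again without overlap. Set against the reads of exon 10 in the same library, which needs no scaling between libraries, the junction of exons 5 and 6 came to 8.51%, 27.2% and 14.7% in the first set. In the second set it came to 103%, 89.0% and 89.2%.

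A junction from the start of the gene directly to exon 9 was seen with the opposite pattern. Reads joining exon 1 to exon 9 numbered 157, 269 and 279 in the first set and 0, 0 and 0 in the second, where a count of 0 allows up to 0.0931 RPM in the library of fewest reads. Reads from exon 1 through exon 2 to exon 9 numbered 95, 108 and 127 in the first set and 0, 3 and 3 in the second. Of the reads leaving the start of the gene for either exon 3 or exon 9, the share going to exon 9 was 85.7% (95% exact binomial interval 81.2% to 89.5%) in library 1 of the first set. It was 68.5% (64.5% to 72.4%) in library 2 and 79.6% (75.8% to 83%) in library 3. In the second set the share was 0% (up to 0.395%), 0.296% (0.0611% to 0.862%) and 0.312% (0.0644% to 0.909%). The intervals cover counting error only. Among the 16 annotated Ptbp1 transcripts, 0 join exon 1 to exon 9 and 0 join exon 2 to exon 9.

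The 6 exons passed over by these junctions, exons 3 to 8, hold 928 nt and 55.7% of the coding sequence. As 928 leaves a remainder of 1 when divided by 3, the frame is not kept. Read from the annotated start codon, a stop follows 58 codons when exon 2 is joined to exon 9 and 7 codons when exon 1 is joined to exon 9, against 555 codons in the full transcript. The labels do not say which exons are floxed. The group FPKM of Ptbp1 covers the whole gene, including the exons from 9 onward.

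**Figure D3:**
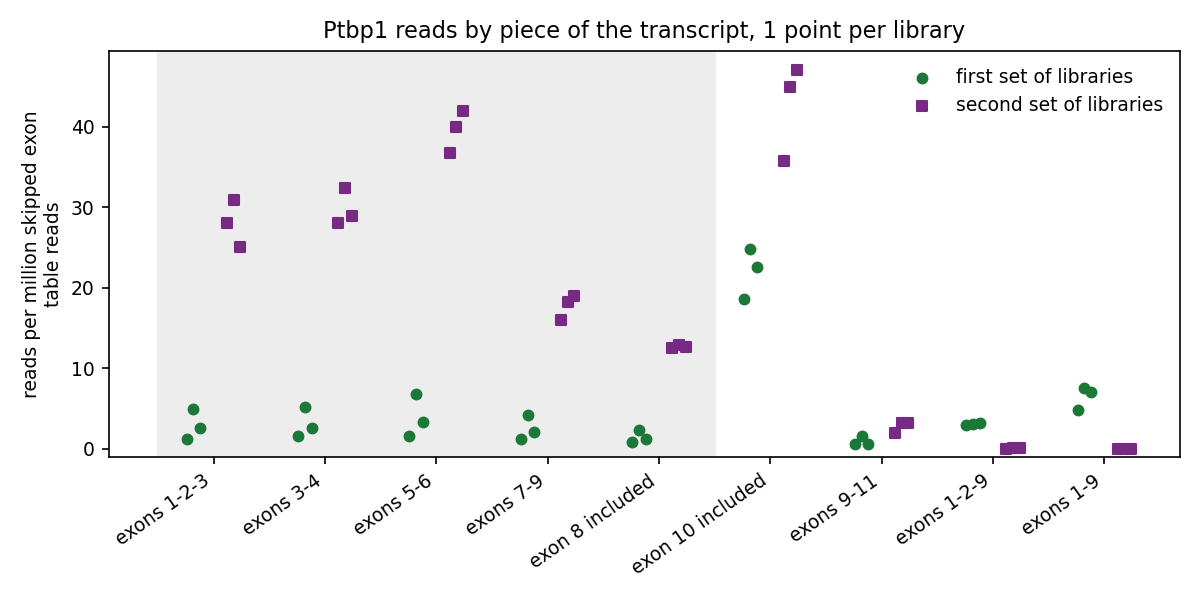
RPM, reads per 1000000 reads of the skipped exon table, for 9 pieces of Ptbp1, with 1 point per library, the first set as circles and the second set as squares, and grey shading over pieces that use exons 3 to 8. In the shaded pieces the first set lies between 0.884 and 6.75 and the second between 12.5 and 42.0, whereas the join of exons 1 and 9 holds reads only in the first set.

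The called Ptbp1 event was listed as a pair of mutually exclusive exons, exon 9 (146 nt) or exon 10 (34 nt), drawn between exon 2 and exon 11. The level listed for the form with exon 9 was 0.330, 0.365 and 0.340 in the first set. In the second it was 0.166, 0.194 and 0.167, without overlap. The authors' deposited table gave a difference of 0.169 with FDR = 5.63e-12, where 1.02% of 7358 tested events of this type were called. Its upstream exon is exon 2, so the form with exon 9 rests in part on the junction of exons 2 and 9 described above. That junction was seen almost only in the first set. In the skipped exon table exon 9, between exons 2 and 10, was included at 0.995 or above in every library. Exon 10, between exons 9 and 11, was included at 0.921 or above in every library. Most reads therefore joined exon 9 to exon 10, and the level of the pair does not measure a choice between them.

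Exon 10 of Ptbp1, through which PTBP1 is known to limit its own level, was mostly included in all 6 libraries. Its inclusion level was 0.959, 0.929 and 0.972 in the first set and 0.938, 0.921 and 0.922 in the second. The ranges overlap, since library 2 of the first set lay below library 1 of the second. The authors' deposited table gave a difference of 0.026 with FDR = 0.0206, below the size asked of a called event. Both annotated transcripts that skip it are marked for nonsense-mediated decay, and its removal from Ptbp1-216 places a stop after 379 codons.

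Exon 8 of Ptbp1, a 78 nt exon in the linker between RNA recognition motifs that separates the longer and shorter PTBP1 isoforms, keeps the reading frame. It was included at 0.325, 0.264 and 0.272 in the first set and 0.335, 0.315 and 0.300 in the second. The ranges overlap, and the authors' deposited table gave a difference of -0.03 with FDR = 1. The lowest library of the first set held 68 reads of this event. Junctions from exon 1 or 2 to exon 9 pass over exon 8, so its levels describe only RNA that keeps this stretch. In the first set the junction of exons 5 and 6 came to only 8.51%, 27.2% and 14.7% of the exon 10 reads. Without exon 8 the coding sequence is 529 codons long, against 555 with it.

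Of the other Ptbp1 events, 3 had an FDR below 0.05 with a difference of 0.055 or less in the authors' deposited table. They were an extended form of exon 2, a 30 nt exon at the start of exon 4 and the intron before exon 4 kept together with its first part (2.06% of retained intron events called over all genes), and in each of them at least 1 library of the first set had fewer than 100 reads. The event of exon 2 between exons 1 and 9 had a deposited difference of -0.716, but it was listed with p = 1 in the authors' deposited table and held 0, 3 and 3 reads in the second set.

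Matr3 had no called event among 12 with enough reads. Its exon of 1093 nt, measured from the upstream exon that ends at position 35562292 of chromosome 18, was included at 0.971, 0.940 and 0.943 in the first set and 0.920, 0.920 and 0.889 in the second. These ranges do not overlap, and the authors' deposited table gave a difference of 0.042 with p = 0.00495 and FDR = 0.103, which does not pass. In 9 of the 12 events the pooled inclusion was above 0.95. Matr3 reads over the 122 nt exon were 50.6, 59.0 and 58.8 RPM in the first set and 49.2, 53.7 and 50.8 RPM in the second, and these ranges overlap.

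**Figure D4:**
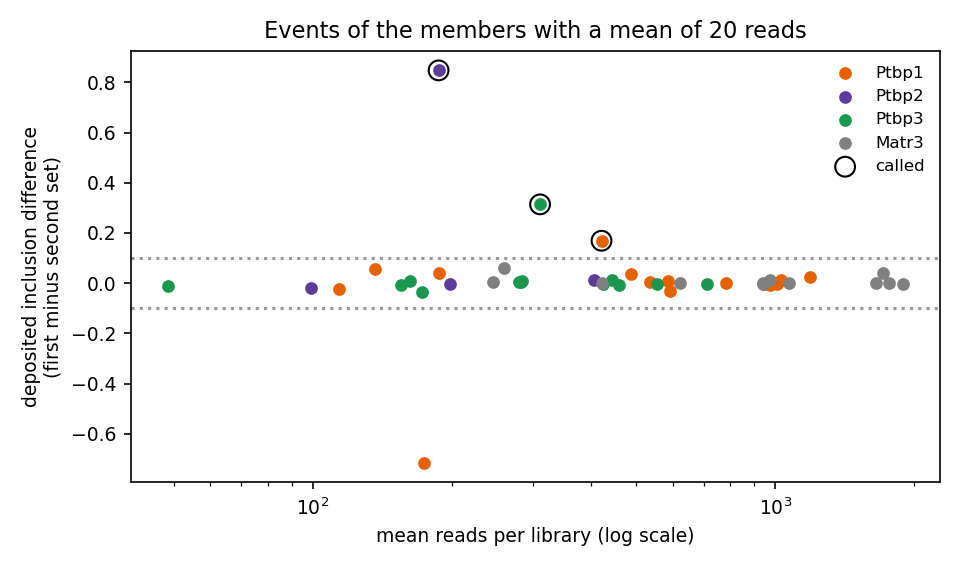
Deposited inclusion difference, first set minus second set, of the 44 events of Ptbp1, Ptbp2, Ptbp3 and Matr3 with a mean of at least 20 reads, against mean reads per library on a log axis. Dotted lines mark differences of 0.1 and -0.1 and rings mark the 3 called events. The point at -0.716 is the exon 2 event of Ptbp1, which was not called.

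Other RNA-binding proteins of splicing were examined as a list of 36 genes, which holds hnRNPs, CELF, MBNL, RBFOX and ESRP proteins and U2AF subunits. Of 30 tested by the authors, 0 were called higher and 0 lower at q below 0.05 in the authors' deposited table. Their median log2 fold change was 0.02, as was that of all tested genes (0.02), and an unadjusted p below 0.05 was listed by Cuffdiff for 1 of the 30, against 4.35% of all tested genes. Hnrnpa2b1 (1053 FPKM in WT and 1044 FPKM in PTBP1_KO) and Hnrnpa1 (368 and 346 FPKM) were the most abundant. Celf2, a CUG-binding splicing regulator, had 0.851 FPKM (WT) and 2.23 FPKM (PTBP1_KO), with a log2 fold change of 1.39 and q = 0.466 in the authors' deposited table. Hnrnph1 (366 and 278 FPKM, q = 1) and Mbnl3 (2.48 and 2.99 FPKM, q = 1) came next by absolute log2 fold change among genes of at least 1 FPKM. The neuronal regulators Rbfox1, Rbfox3, Nova1, Nova2, Srrm3 and Srrm4 were at most 0.124 FPKM in either group and were not tested.

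In splicing, called events were present in 8 of 28 genes with a tested event (28.6%), against 6.61% of 9337 genes. By event, 11 of their 347 tested events were called (3.17%), against 1.56% of 53918. A 36 nt exon of Mbnl2, a muscleblind splicing regulator, was included at 0.818, 0.638 and 0.748 in the first set and 0.323, 0.338 and 0.402 in the second. A 127 nt exon of Hnrnph1 was included at 0.943, 0.805 and 0.924 against 0.615, 0.557 and 0.623. A 151 nt exon of Esrp1, an epithelial splicing regulator, went the other way, at 0.262, 0.469 and 0.401 in the first set and 0.559, 0.614 and 0.582 in the second. None of these 3 overlapped between the sets. By the same rule events were called in Celf1 and Celf2, with differences of -0.187 and -0.478 in the authors' deposited table, the latter on a mean of 21.3 reads.

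As exon 10 of Ptbp1 and of Ptbp2 is known to act through nonsense-mediated decay, 17 genes of that pathway and of the exon junction complex were examined. All were tested and 0 were called in either direction in the authors' deposited table, with a median log2 fold change of -0.07, and 1 had an unadjusted Cuffdiff p below 0.05. Magoh (135 and 127 FPKM) and Eif4a3 (92.0 and 77.7 FPKM, log2 fold change -0.24) were the most abundant. Magohb, the paralog of Magoh in the exon junction complex, had 37.7 FPKM (WT) and 52.2 FPKM (PTBP1_KO), with a log2 fold change of 0.47 and q = 0.574 in the authors' deposited table. Smg5 had 43.0 and 48.3 FPKM, with q = 1 in that table.

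In splicing, 2 of 15 genes of this pathway had called events (13.3%), and 5 of 90 tested events were called (5.56%). A 200 nt exon of Magohb was included at 0.412, 0.272 and 0.242 in the first set and 0.0397, 0.0262 and 0.0523 in the second. The sets did not overlap, and the authors' deposited table gave a difference of 0.269 with an FDR listed as 0.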

How the data were processed

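Polyadenylated RNA of 6 libraries, 3 WT and 3 PTBP1_KO, was sequenced from crypt cells released in 2 mM EDTA and passed through a 70 µm strainer. The labels number 3 libraries per group and do not say whether each is 1 animal, so the authors' p-values measure the spread between these libraries. Per the submitters' processing notes, the tools were Cuffdiff, Cufflinks, STAR 2.6.1d, Trimmomatic 0.38 and bcl2fastq 2.20, and the genome build mm10. The deposited gene table gives 1 FPKM per group, and its depth is unknown. The authors also deposited a log2 fold change, a p-value and a q-value per gene, per the file headers. The deposited inclusion level difference, a score from -1 to 1, has a p-value and FDR from the authors. The splicing program's version is not given in the sources used here.

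Inclusion was computed for each library as reads divided by the effective length of each form, and differed from the deposited levels by at most 0.0005. The computation was also run on simulated reads drawn from the same formula, with only counting error between libraries of a set. That run checks the arithmetic and says nothing about these libraries. RPM values were scaled to all reads of the skipped exon table in a library. Sequences and coordinates (1-based) are from GENCODE M21. The members, lists and thresholds were chosen with earlier results of these data known. All 6 members were named, with every called event, the event of smallest p and that with most reads of each. In the lists, called genes, the 3 largest log2 fold changes at 1 FPKM or more, the 2 most abundant genes and up to 5 genes with called events were named, and other events were named after their values were seen. Tool versions were scipy 1.17.1, pandas 2.3.3, numpy 2.4.6, matplotlib 3.10.9 and Python 3.11.15. The motif search was planned for a genome and covered only introns inside annotated transcripts. The called events of 1 gene of the lists are not reported here.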

Additional observations from a re-analysis of the deposited data

How the results depend on the processing

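No paired analysis was possible because the gene table has 1 value per group and the splicing columns carry neither genotype nor replicate number. Of the members, 0 were called by level at q below 0.01 in the authors' deposited table, since the smallest q of that table is 0.0125. After centring on all tested genes or on those of at least 5 FPKM, the log2 change became -0.00877 or -0.0103 for Ptbp3 and -0.0190 or -0.0206 for Raver1; their sign is not resolved. The other 16 of 20 recomputed log2 changes kept their sign. With FDR alone 7 events of the members were called, a setting that admits events by construction. The 3 called events were the same at a mean of 10 or 50 reads and with 20 reads in every library, and the Ptbp1 pair was lost at a difference of 0.2. With 1 event per gene as denominator, RPM had a median over the 6 libraries of 84.0 for Ptbp1, 11.1 for Ptbp2, 51.6 for Ptbp3 and 135 for Matr3. Taken as the median over a gene's events it was 16.2 for Ptbp1, 8.14 for Ptbp3 and 29.2 for Matr3. Under these 2 settings the sets still did not overlap for Ptbp1 and Ptbp2 and overlapped for Ptbp3 and Matr3. How often the sets lie apart in this way over all genes was not computed. The share of windows with a motif was, at 50 and 200 bases, 44.1% and 76.6% for TCTT, 19.5% and 36.8% for TCTCT, 7.16% and 13.8% for CTCTCT, and 10.1% and 20.8% for TTTCTT; longer windows hold more matches by construction. Leaving out 1 library at a time, pooled inclusion ranged from 0.595 to 0.778 for Ptbp2 exon 10 and from 0.281 to 0.363 for Ptbp3 exon 2. For Ptbp1 it ranged from 0.224 to 0.27 for the exon pair, from 0.93 to 0.94 for exon 10 and from 0.302 to 0.316 for exon 8.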

Other observations

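The skipped exon table held 40 unique exons of 34 nt with a mean of at least 20 reads, in 50 events. Of these exons 3 had a called event, in Ptbp2, Ptbp3 and Mthfd2l, and Mthfd2l was named after its values were seen. Over all lengths 1.68% of tested skipped exon events were called, a share of events and not of unique exons. The length was taken from the called exons of Ptbp2 and Ptbp3, which are among the 3, so no excess at this length can be read from the count.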
